A study of Drosophila melanogaster with 12 samples.

Results

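The tracheal genes described here are *bnl*, *btl*, *trh*, *vvl*, *serp*, *verm* and *Gasp* of *Drosophila melanogaster*. They were picked by name, with earlier results of these data known, as FGF ligand and receptor, transcription factors and lumen proteins of the trachea. Each was found by its symbol, 7 genes of 17208 in the tables. RNA had been sequenced from pooled imaginal discs of larvae of the third instar, with 40 discs in a library of the eye antennal disc and 30 in a library of the wing disc. The eye antennal discs came from GMR-Gal4 > w1118 control larvae (3 libraries) and from GMR-Gal4 > UAS-*fuss* larvae (3 libraries), and the wing discs from nub-Gal4 > w1118 control larvae (3 libraries) and from nub-Gal4 > UAS-*fuss* larvae (3 libraries). All 12 libraries thus carried a Gal4 driver. GMR-Gal4 drives *fuss* behind the morphogenetic furrow of the retina, and nub-Gal4 is a driver of the wing pouch, so *fuss* was overexpressed in part of each disc. For the eye libraries 1 label field names nub-Gal4, and the genotype field, which names GMR-Gal4, was followed here.

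The trachea is the tubular respiratory network of the fly. The FGF Branchless, encoded by *bnl*, is made by cells outside the tubes and guides tracheal cells that carry its receptor Breathless, encoded by *btl*. Trachealess and Ventral veins lacking, the transcription factors encoded by *trh* and *vvl*, set up tracheal fate in the embryo and are needed for *btl* expression there. Serpentine and Vermiform are secreted chitin deacetylases that limit tube length, and Gasp is a secreted chitin-binding protein of the tube lumen. In the late larva the wing disc carries tracheal tubes and the air sac primordium, an outgrowth of *btl* expressing tracheal cells that follows *bnl* made in the disc epithelium. *vvl* also acts in the wing epithelium itself, where its loss removes veins.

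For each tissue the value used is the authors' mean normalized count over all 6 libraries, control and *fuss* overexpression pooled. It carries no spread and no value per library, so no level below has an error and no difference between the tissues could be tested. The depth of the libraries is unknown. The means of all genes sum to 29977881 in eye antennal discs and 34175754 in wing discs, and levels were set on a common scale as parts of these sums in 1000000, written ppm. The tables of both tissues had been normalized separately, and tissue, Gal4 driver and number of discs differ together between them. How the tracheal genes differed between control and *fuss* overexpressing discs was not analysed here, because the deposited values for that comparison are the results of the authors' own test. In bulk discs, tracheal cell number, RNA per tracheal cell and RNA of these genes from other disc cells cannot be told apart.

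The gene lists that mark the labelled tissues differed between the tables in the direction of the labels. Of 4 eye disc genes, 4 were at least 2-fold higher in eye antennal discs, with *gl*, a retinal transcription factor, at 243 ppm in eye and 1.502 in wing discs. Of 4 wing disc genes, 3 were at least 2-fold higher in wing discs, among them *vg*, a selector gene of the wing, at 3.36 ppm in eye and 179 in wing discs. The other one, *rn*, was at 111 ppm in eye and 148 in wing discs. None of the tracheal genes was at 0 in either tissue, and a level above 0 does not say which cells made the RNA.

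The largest ratios between the tissues were those of the transcription factor genes *trh* and *vvl*, which were higher in wing discs, while the lumen genes *serp* and *verm* stood at like and high levels in both. Of the 7 tracheal genes, 3 were at least 2-fold higher in wing discs and 1 was at least 2-fold higher in eye antennal discs. Over all 10542 genes whose mean normalized count reached 10 in at least 1 tissue, the shares were 5.59% higher in wing and 13.6% higher in eye antennal discs, with 80.8% within 2-fold. The 3 genes higher in wing discs were *vvl*, *trh* and *btl*, and the gene higher in eye antennal discs was *Gasp*. The median log2 ratio of eye over wing was 0.18 for the 7 genes and 0.02 for all 10542 genes, and with the means as deposited these medians were -0.00755 and -0.17. The members did not move together, with log2 ratios from -4.52 for *vvl* to 1.58 for *Gasp*. These log2 ratios were taken after adding 0.1 ppm to both levels.

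**Figure D1:**
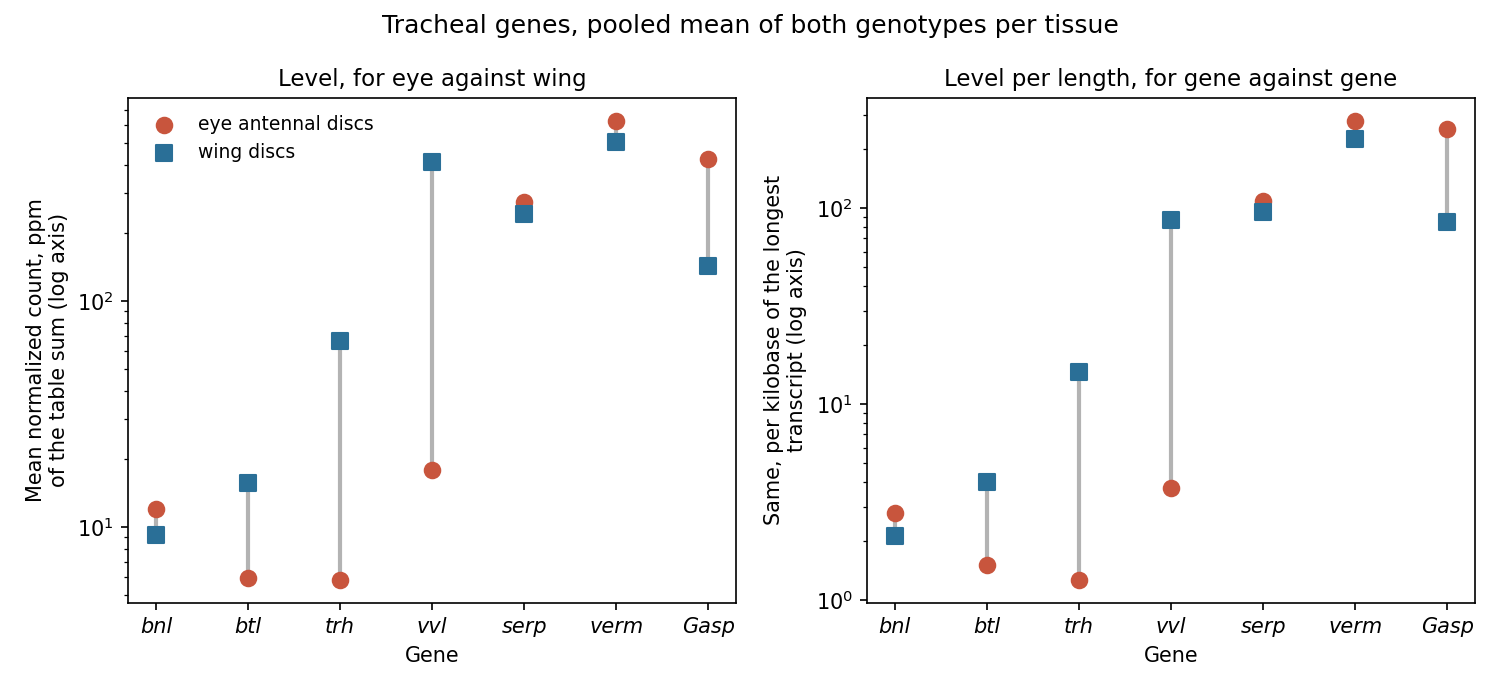
Levels of the 7 tracheal genes in eye antennal discs (circles) and wing discs (squares), as the authors' mean over both genotypes, on log axes. The left panel gives the mean normalized count in ppm of the table sum and the right panel the same per kilobase of the longest transcript, and grey lines join the tissues. *vvl* and *trh* have the longest lines, with wing on top, and *Gasp* is the gene with a long line and eye on top.

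The ligand gene *bnl* (FBgn0014135) lies on the minus strand of chromosome 3R of BDGP6.54 from 19794073 to 19836817. Its mean normalized count was 360 in eye antennal discs and 313 in wing discs, or 12.01 and 9.17 ppm. The level in eye antennal discs was thus 1.31 times that in wing discs, and 2260 of the 10542 genes had a higher ratio of eye over wing. A tRNA gene lies within *bnl* on the opposite strand and overlaps it by 74 bases. Among the 7 genes *bnl* was the lowest per kilobase in wing discs.

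The receptor gene *btl* (FBgn0285896) lies on the plus strand of chromosome 3L of BDGP6.54 from 14075772 to 14083229. Its mean normalized count was 177 in eye antennal discs and 535 in wing discs, or 5.91 and 15.7 ppm. The wing level was 2.65 times the eye level. The log2 ratio of eye over wing was -1.39, and 366 genes had a lower one. In these means receptor and ligand had opposite orders of the tissues. The difference of *bnl* was small, at 1.31 times, and with no spread its order is not secure. Per kilobase of transcript, *bnl* stood at 1.85 times the level of *btl* in eye antennal discs and at 0.533 times in wing discs.

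The bHLH-PAS transcription factor gene *trh* (FBgn0262139) lies on the minus strand of chromosome 3L of BDGP6.54 from 366524 to 392633. Its mean normalized count was 175 in eye antennal discs and 2273 in wing discs, or 5.83 and 66.5 ppm. In wing discs the level was 11.4 times that in eye antennal discs, a log2 ratio of eye over wing of -3.49, with 57 of 10542 genes lower. It was the lowest of the 7 genes per kilobase in eye antennal discs and ranked 5 in wing discs. An overlap of 628 bases with a long noncoding RNA gene on the same strand falls at the 5′ end of *trh*. *trh* and its target *btl* did not differ between tissues by a common factor. Per kilobase *trh* stood at 0.840 times the level of *btl* in eye antennal discs and at 3.62 times in wing discs, so that this proportion was 4.31 times as high in wing discs.

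The POU domain transcription factor gene *vvl* (FBgn0086680) lies on the plus strand of chromosome 3L of BDGP6.54 from 6790158 to 6794941, with no other gene overlapping it. Its mean normalized count was 537 in eye antennal discs and 14156 in wing discs, or 17.9 and 414 ppm. The wing level was 23.1 times the eye level, and 25 of the 10542 genes had a lower log2 ratio of eye over wing than the -4.52 of *vvl*. Per kilobase *vvl* was at the 50.7 percentile of the genes above 0 in eye antennal discs and at the 94.0 percentile in wing discs. Its level per kilobase was 2.95 times that of *trh* in eye antennal discs and 5.97 times in wing discs.

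**Figure D2:**
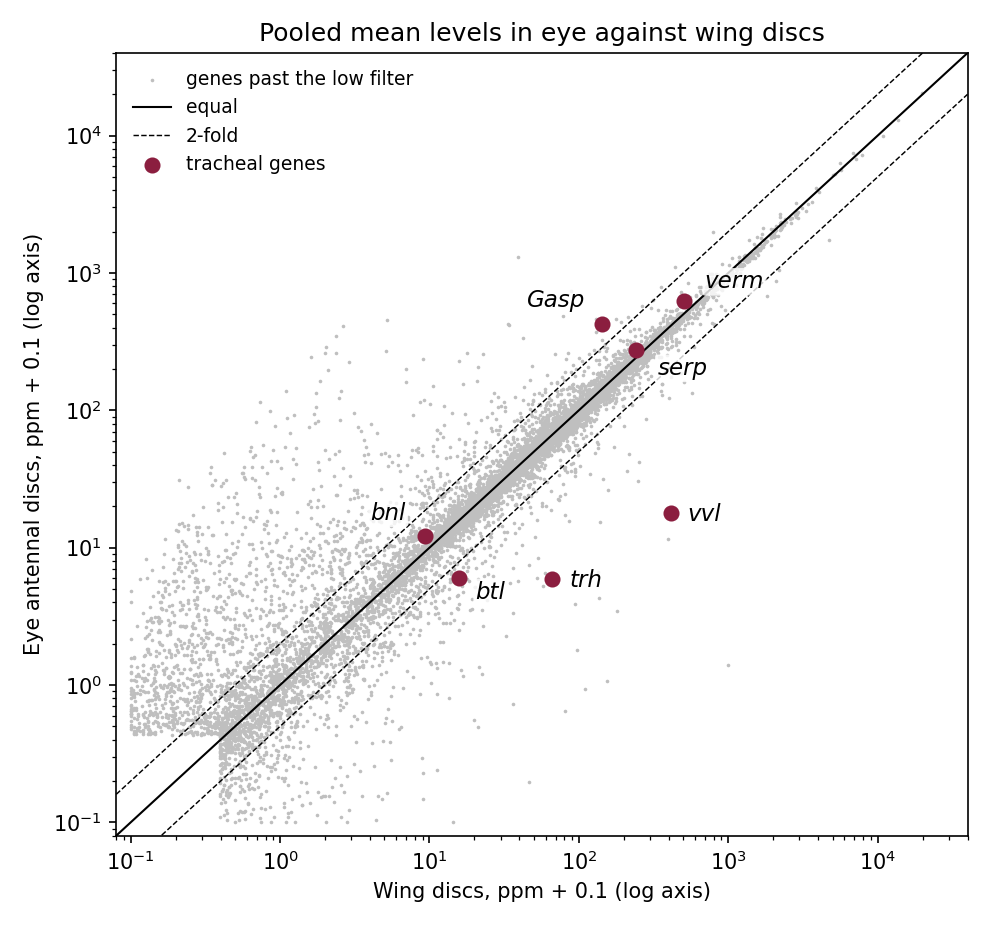
Level of each of 10542 genes in eye antennal discs (vertical) against wing discs (horizontal), in ppm plus 0.1 on log axes, with the 7 tracheal genes in dark red. The solid line marks equal levels and the dashed lines 2-fold. *serp*, *verm* and *bnl* lie between the dashed lines, *vvl*, *trh* and *btl* below them and *Gasp* above.

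The chitin deacetylase genes *serp* and *verm* are neighbours. *verm* (FBgn0261341) spans 19690033 to 19695260 and *serp* (FBgn0260653) spans 19700977 to 19708015, both on the minus strand of chromosome 3L of BDGP6.54, with 5716 bases between them and 0 annotated genes in that gap. The mean normalized count of *serp* was 8268 in eye antennal discs and 8311 in wing discs, or 276 and 243 ppm. That of *verm* was 18806 and 17264, or 627 and 505 ppm. Between the tissues the levels in ppm differed by 1.13 times for *serp* and 1.24 times for *verm*, both higher in eye antennal discs. The direction for *serp* turned when the means were taken as deposited, at a log2 ratio of -0.00755, so that no order of the tissues can be given for it. The proportion of *verm* to *serp* per kilobase was 2.56 in eye antennal discs and 2.34 in wing discs. Both genes encode related enzymes, and how reads that match both were shared between them is known only as far as the quantification with Salmon assigns them.

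The third lumen gene, *Gasp* (FBgn0026077), lies on the minus strand of chromosome 3R of BDGP6.54 from 6088799 to 6100887. Its mean normalized count was 12764 in eye antennal discs and 4872 in wing discs, or 426 and 143 ppm. The eye level was 2.99 times the wing level, a log2 ratio of 1.58, with 1060 of the 10542 genes higher. *Gasp* thus differed from the other lumen genes. Its level per kilobase was 2.33 times that of *serp* in eye antennal discs and 0.885 times in wing discs. The 3 lumen genes together came to 1329 ppm in eye antennal discs and 891 in wing discs, whereas *trh* and *btl* together came to 11.7 and 82.2.

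Per kilobase of the longest transcript the order in eye antennal discs was *verm* (278 ppm per kilobase), *Gasp* (253), *serp* (109), *vvl* (3.75), *bnl* (2.80), *btl* (1.51) and *trh* (1.27). In wing discs it was *verm* (224 ppm per kilobase), *serp* (95.7), *vvl* (86.6), *Gasp* (84.7), *trh* (14.5), *btl* (4.01) and *bnl* (2.14). With no spread, it cannot be said which neighbours in these orders differ. With the shortest annotated transcript in place of the longest, *Gasp* came before *verm* in eye antennal discs and before *vvl* in wing discs. In eye antennal discs there was a wide gap between the lumen genes, all at or above the 95.5 percentile of the genes above 0, and the other members, all at or below the 50.7 percentile. In wing discs *vvl* stood among the lumen genes. Against *trh*, the level of *verm* per kilobase was 219 times as high in eye antennal discs and 15.5 times as high in wing discs.

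Each mean pools 3 control and 3 *fuss* overexpression libraries, and this sets an arithmetic limit to what the genotypes could add. The mean of 1 genotype cannot exceed 2 times the pooled mean, and in the other tissue at least 1 genotype reaches the pooled mean. In at least 1 genotype of the wing the level of *vvl* was therefore at least 11.6 times that of either genotype of the eye, the level of *trh* at least 5.70 times and that of *btl* at least 1.32 times. For *Gasp*, at least 1 genotype of the eye stood at least 1.49 times above either genotype of the wing. These limits hold on the scale in ppm and do not say which genotype reached them.

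Of 17 further genes of the pathway, from ligands to the Ras cascade, 14 differed by less than 2-fold, 1 was at least 2-fold higher in wing and 2 in eye antennal discs, with a median log2 ratio of 0.07. The share within 2-fold is near the 80.8% of all genes. The gene higher in wing discs was *htl*, which encodes the other FGF receptor of the fly and acts in mesodermal cells, at 15.0 ppm in eye and 36.9 in wing discs. The genes higher in eye antennal discs encode ETS transcription factors that respond to receptor tyrosine kinases. *aop*, a repressor, was at 463 and 176 ppm and *pnt*, an activator, at 133 and 53.6. *stumps*, whose product links the FGF receptors to Ras, was at 51.4 ppm in eye and 85.5 in wing discs.

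Of 13 further transcription factor genes of tracheal fate, branching and fusion that passed the low-count filter, 2 were at least 2-fold higher in wing discs and 0 in eye antennal discs, with a median log2 ratio of -0.14. The other 11 were within 2-fold, as were 80.8% of all genes. Those higher in wing discs were *dysf*, a bHLH-PAS gene of fusion cells, at 5.85 ppm in eye and 21.2 in wing discs, and *bs*, at 23.7 and 75.1. *bs* encodes the serum response factor of terminal tracheal cells and is also a gene of the wing intervein. *kni* (22.9 and 43.3 ppm) and *salm* (107 and 198), which pattern tracheal branches and also the wing, were within 2-fold.

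Of 14 further genes of the lumen and apical matrix, 13 differed by less than 2-fold, beside 80.8% of all genes, and the median log2 ratio was 0.06. The exception was *exp*, a gene of chitin deposition, at 20.6 ppm in eye and 8.62 in wing discs. *obst-B*, of a family of chitin-binding proteins, was at 193 and 108 ppm, and *Cda5*, a chitin deacetylase gene, at 5.42 and 9.27. *reb*, the partner of *exp*, was low in both tissues, at 0.663 and 0.970 ppm. All 12 septate junction genes, which many epithelia express, lay within 2-fold, with log2 ratios from -0.08 to 0.27 and a median of 0.14.

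Markers of other cell types, which can lie within discs or on them, also differed between the tables. Their counts stand beside 13.6% of all genes at least 2-fold higher in eye antennal discs and 5.59% in wing discs. Of 9 haemocyte markers 6 were at least 2-fold higher in eye antennal discs and 1 in wing discs, and their summed level was 1095 ppm in eye and 283 in wing discs. The largest parts of the eye sum were the prophenoloxidase genes *PPO2*, of crystal cells, at 415 and 33.8 ppm, and *PPO1*, at 256 and 22.6. *Hml*, a haemocyte gene, was at 107 and 30.0 ppm. Of 8 glial markers 5 were at least 2-fold higher in eye antennal discs, with *repo*, the glial transcription factor gene, at 32.8 and 0.476 ppm. The glial marker *nrv2*, at 220 and 192 ppm, is also among the septate junction genes above. Of 6 myoblast markers, 1 of them *htl* again, 3 were at least 2-fold higher in wing discs, and their sum was 131 ppm in eye and 273 in wing discs. The mesodermal gene *twi* was at 3.23 and 36.0 ppm and *Him* at 1.09 and 22.4. Of 6 fat body markers that passed the filter 5 were at least 2-fold higher in wing discs, and the sum of all 7 in the list was 4751 ppm in eye and 11578 in wing discs. *Fbp1*, a fat body protein gene, was at 1750 and 4702 ppm. The part of these cells in the levels of the tracheal genes was not tested.

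**Figure D3:**
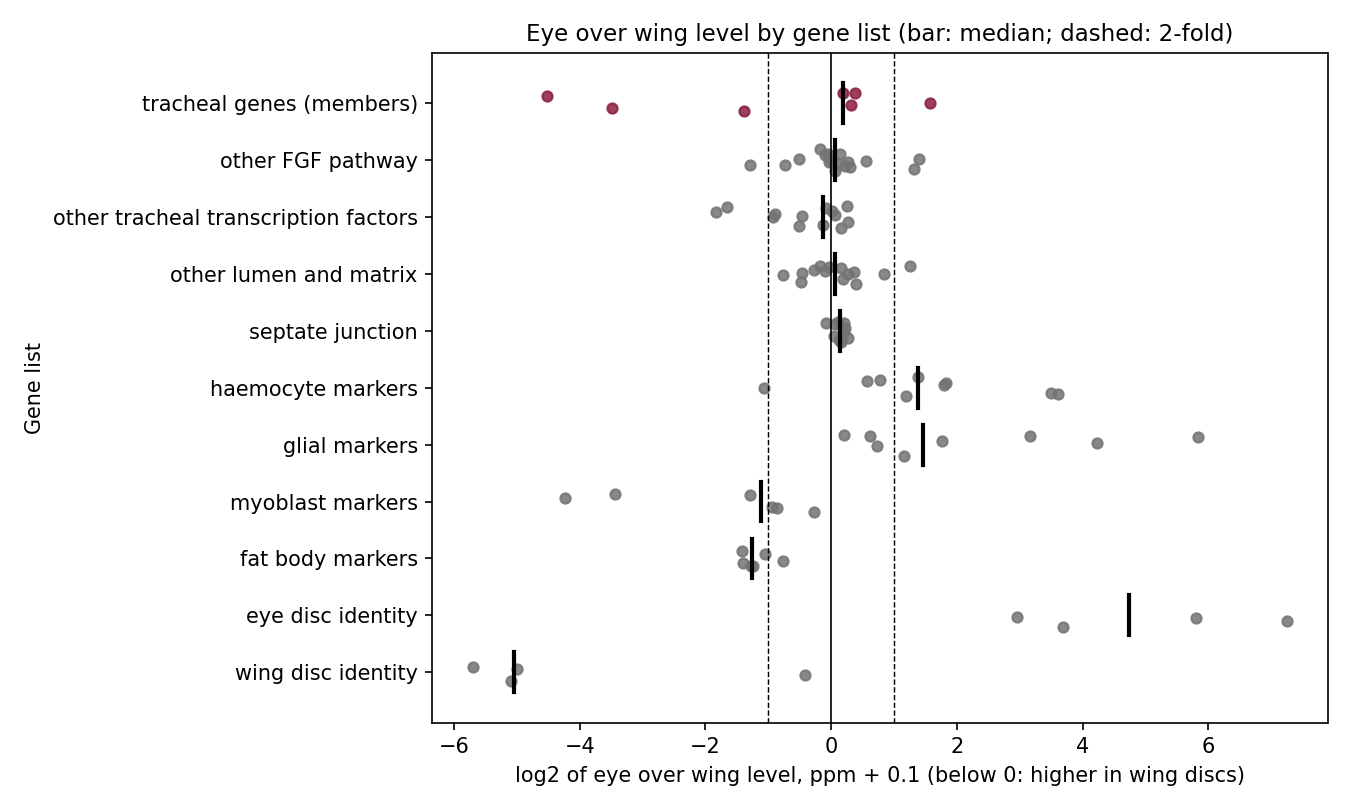
Log2 ratio of the level in eye antennal over wing discs, in ppm plus 0.1, for the genes of each list that passed the low-count filter. Points are genes, black bars are medians and dashed lines mark 2-fold, with values below 0 higher in wing discs. The tracheal genes spread from -4.52 to 1.58, while the septate junction genes lie between -0.08 and 0.27.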

How the data were processed

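Per the labels and the paper, RNA came from 12 disc pools, 3 for each genotype and tissue. The authors quantified reads with Salmon (1.1.0 in the submitters' processing notes), imported them with tximeta and compared genotypes with DESeq2 (1.30.0). The deposited mean normalized count is a signal, averaged by the authors over the 6 libraries of a tissue. The other deposited columns (log2 fold change, its error, statistic and p-values of *fuss* overexpression against control) are the authors' own comparison and were not used.

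Means were divided by the table sum and given in ppm, parts in 1000000. The log2 ratio of eye over wing used a pseudocount of 0.1 ppm, over genes with a mean of at least 10 in at least 1 table. Past 2-fold counts as higher, with no test. Positions and transcript lengths are from BDGP6.54, an annotation of the BDGP6 assembly named in the labels, for 17083 of 17208 genes. The paper names an earlier release for its quantification, so these lengths may differ from those of the transcripts counted. Members and lists were chosen with earlier results of these data known. All members and up to 4 genes of each list with the largest absolute ratio are named. Of 98 list entries 3 were matched through synonyms and 2 matched none. Library names place 1 control wing library and 3 *fuss* wing libraries on lane 5, and 2 control wing libraries on lane 6. In the eye, each genotype has 1 library on lane 5 and 2 on lane 6. The calculation was tested on simulated data under a scaling by the median ratio of genes, which is among the alternatives. The division by table sums was not tested in that way. Alternatives were other scalings, pseudocounts, filters, folds and transcript lengths. No sequences were used here. Python 3.11.15, numpy 2.4.6, pandas 2.3.3 and matplotlib 3.10.9 were used.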

Additional observations from a re-analysis of the deposited data

How the results depend on the processing

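No paired analysis was possible because the values used are means over all libraries of a tissue, which also leaves no library to leave out. The alternatives for the member ratios were 3 other scalings between the tissues and pseudocounts of 0.01 and 1 ppm. Under these the 3 genes higher in wing discs and *Gasp* kept their direction and stayed past 2-fold. Their log2 ratios of eye over wing ran from -4.71 to -4.46 for *vvl*, from -3.68 to -3.30 for *trh*, from -1.58 to -1.27 for *btl* and from 1.39 to 1.58 for *Gasp*. Those of *bnl* (0.20 to 0.39) and *verm* (0.12 to 0.32) stayed above 0, and that of *serp* ran from -0.00755 to 0.19. Taking the means as deposited moved the median log2 ratio of all genes from 0.02 to -0.17, and the ratios are to be read against that shift. With it the median of the 7 members, which is the value of *serp*, turned from 0.18 to -0.00755, that of the further FGF genes from 0.07 to -0.12, of the lumen and matrix genes from 0.06 to -0.13 and of the septate junction genes from 0.14 to -0.05. At 4-fold in place of 2-fold, 2 members were apart between the tissues, *vvl* and *trh*, and at 1.5-fold 4 were. These counts stand without the share of all genes at the same folds, and only say which members passed. With a pseudocount of 1 ppm the shares of all genes at least 2-fold higher were 3.21% in wing and 9.04% in eye antennal discs. The low-count filter does not enter the ratio of a member and sets only the genes behind these shares. At a pseudocount of 0.1 ppm the shares were 4.18% and 10.5% with no filter, and 4.73% and 11.1% with a filter at 50. The median percentile of the 7 members by level per kilobase in eye antennal discs was 50.7 among genes above 0 and 28.0 among genes whose mean normalized count reached 10, as the latter set leaves out low genes. The missing spread between libraries limits every level and ratio here.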
